A study of Mus musculus with 4 samples.

Results

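The genes described here are the VEGF receptors, neuropilins and VEGF ligands, as measured by RNA-Seq in CD31+CD45- cells isolated from the cerebrum of Mgp fl/fl mice that carry VE-cadherin cre/ERT2 (Cdh5cre in the labels). They were taken by gene symbol, and all 9 were present among the 24873 genes of the table, as 3 receptors (Kdr, Flt1 and Flt4), 2 neuropilins (Nrp1 and Nrp2) and 4 ligands (Vegfa, Vegfb, Vegfc and Pgf). Every mouse carried floxed Mgp and a Cre recombinase that is driven by the endothelial VE-cadherin promoter and becomes active with tamoxifen. From 10 weeks of age, tamoxifen was given at 75 mg/kg on 5 consecutive days to delete Mgp in endothelial cells, and control mice were left without it. On day 9, cells were collected in 2 control and 2 tamoxifen libraries, each pooled from 3 mice. No library came from mice given tamoxifen without the deletion, so an effect of the drug and one of the deletion cannot be told apart. The sample labels name the cells by a tdTomato reporter, which the genotype given there does not list.

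The libraries held 35387438 to 49799321 reads on genes. Mgp, which encodes the matrix Gla protein, a BMP inhibitor, was at 1094 and 1352 normalized counts in control and 945 and 909 with tamoxifen, a log2 fold change of -0.39 ± 0.18 (SE) that did not pass the test (limma, adjusted p = 0.0986). It was 0.08 at equal totals and -0.64 under quantile normalization (adjusted p = 0.0126), under the size limit of 1. The gene total does not separate deleted from remaining exons, and it does not show how complete the deletion was. The endothelial label was checked with 17 marker genes, among them Pecam1, Cdh5 and Tie1. All 17 were lower with tamoxifen, and their summed level went from 1359589 and 1373112 normalized counts in control to 229552 and 107011 in tamoxifen libraries 1 and 2. Genes of other cell types were higher at the same time. The 10 neutrophil markers summed to 308 and 248 in control and 113408 and 84506 with tamoxifen, and the 8 fibroblast markers to 2448 and 3397 in control and 71242 and 61409 with tamoxifen.

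VEGF ligands are secreted growth factors that bind receptor tyrosine kinases on endothelial cells. VEGF-A signals mainly through VEGFR2, the product of Kdr, whereas VEGFR1, the product of Flt1, binds VEGF-A, VEGF-B and placental growth factor tightly and acts largely as a decoy for VEGF-A. VEGFR3, the product of Flt4, is the receptor of VEGF-C and VEGF-D and is best known from lymphatic vessels, and neuropilins are coreceptors that bind both VEGFs and class 3 semaphorins. In the brain, VEGF-A is made largely by cells outside the vessel wall, such as astrocytes and choroid plexus epithelium, and it acts on the endothelium.

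The promoters of both receptors with the highest levels and of the ligands that rose are shown to set the sequences beside the values that follow. Each covers 300 bases, 250 before and 50 after the RefSeq start site, and was found at a single place in GRCm39. The windows lie at chr5:76139066-76139365 for Kdr, chr5:147662772-147663071 for Flt1, chr17:46343254-46343553 for Vegfa and chr19:6964970-6965269 for Vegfb, all on the minus strand. Capitals mark 3 motifs on either strand, so that the reverse complement is marked as well. The first is GGGCGG, the GC box bound by SP factors. The others are the ETS core CCGGAA and the TATA box, spelled TATAAA.
Kdr: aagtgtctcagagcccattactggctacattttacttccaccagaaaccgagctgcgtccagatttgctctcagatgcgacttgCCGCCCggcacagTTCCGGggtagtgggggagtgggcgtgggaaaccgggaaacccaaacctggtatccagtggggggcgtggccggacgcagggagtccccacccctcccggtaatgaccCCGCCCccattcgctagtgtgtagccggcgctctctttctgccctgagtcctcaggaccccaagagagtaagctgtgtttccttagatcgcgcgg
Flt1: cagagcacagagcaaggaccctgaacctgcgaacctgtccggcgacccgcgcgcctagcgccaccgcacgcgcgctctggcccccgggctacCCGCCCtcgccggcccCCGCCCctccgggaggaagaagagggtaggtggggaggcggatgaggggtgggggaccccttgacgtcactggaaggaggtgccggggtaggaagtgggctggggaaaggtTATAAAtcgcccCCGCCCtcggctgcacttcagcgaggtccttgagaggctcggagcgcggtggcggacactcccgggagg
Vegfa: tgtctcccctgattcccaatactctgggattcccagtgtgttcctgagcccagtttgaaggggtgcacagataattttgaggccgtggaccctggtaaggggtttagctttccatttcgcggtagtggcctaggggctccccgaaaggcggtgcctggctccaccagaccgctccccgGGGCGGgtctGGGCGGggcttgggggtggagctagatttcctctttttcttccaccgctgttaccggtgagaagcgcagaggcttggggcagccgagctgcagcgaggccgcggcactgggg
Vegfb: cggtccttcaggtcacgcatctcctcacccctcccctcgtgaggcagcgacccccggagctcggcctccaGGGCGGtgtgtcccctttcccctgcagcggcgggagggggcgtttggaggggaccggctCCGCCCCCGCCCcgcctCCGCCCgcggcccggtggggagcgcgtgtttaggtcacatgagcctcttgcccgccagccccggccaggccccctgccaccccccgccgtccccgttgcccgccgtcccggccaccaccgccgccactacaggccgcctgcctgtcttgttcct
RefSeq gives a second window for Vegfa and Pgf, and the counts that follow are for the first window of each gene. GGGCGG was found on either strand in the windows of 9 of the 9 genes and in 35.7% of 32851 RefSeq promoter windows of the same length. The 9 windows had a GC content of 60.7% to 75.3%, against a median of 52.7% for all windows, and among the 9690 windows with at least 60% GC the motif was in 80.6%. CCGGAA was found in Kdr alone among the 9, at position -153 from the start site, and in 14.9% of all windows. TATAAA was found in Flt1 alone, at position -31, and in 13.6% of all windows. TACGTG, the core bound by hypoxia-inducible factors, was in 0 of the 9 windows and in 3.23% of all windows. The GC box was thus shared by genes that fell, genes that rose and Pgf, as by most windows of such GC content. No marked hits in the printed windows overlapped each other. The second window of Vegfa held the GC box at a GC content of 59.3%, and that of Pgf held none of the 4 motifs at 64%. A match of letters does not show a bound site.

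The 3 receptor genes fell in both tamoxifen libraries. Kdr (chr5:76093487-76139884, minus strand) was at 155506 and 147388 normalized counts in control libraries 1 and 2 and at 28812 and 17596 in tamoxifen libraries 1 and 2. It was 6.72-fold lower with tamoxifen, a log2 fold change of -2.75 ± 0.33 (SE, limma, adjusted p = 0.000284). Flt1 (chr5:147498414-147662826, minus strand), the highest of the 9 in normalized counts, was at 312914 and 283220 in control and at 43942 and 19956 with tamoxifen. The decrease was 10.1-fold, with a log2 fold change of -3.33 ± 0.44 (limma, adjusted p = 0.00047). Flt4 (chr11:49500090-49543582, plus strand) was at 21954 and 24059 in control and at 4195 and 2395 with tamoxifen, 7.25-fold lower, with a log2 fold change of -2.86 ± 0.26 (limma, adjusted p = 9.70e-05). The groups did not overlap for any of the 3 genes, and tamoxifen library 2 was lowest each time. As a share of all normalized counts of a library, the 3 receptors together took 0.955% and 0.885% in control and 0.201% and 0.112% with tamoxifen. In these bulk libraries, fewer endothelial cells and less receptor RNA per endothelial cell cannot be told apart. The 17 endothelial markers ranged in log2 fold change from -4.10 to -2.82, beside which the receptors stood, and their part in the result was not tested.

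Both neuropilin genes also fell, Nrp2 less than Nrp1. Nrp1 (chr8:129085085-129231082, plus strand), the coreceptor typical of arterial and capillary endothelium, was at 31939 and 29073 in control and at 6452 and 4791 with tamoxifen. It was 5.48-fold lower, with a log2 fold change of -2.45 ± 0.21 (limma, adjusted p = 6.89e-05). Nrp2 (chr1:62742444-62857854, plus strand), which partners VEGFR3 in veins and lymphatic vessels, was at 7166 and 7162 in control and at 3727 and 2850 with tamoxifen. This decrease was 2.20-fold, with a log2 fold change of -1.14 ± 0.18 (limma, adjusted p = 0.00103). The ratio of Nrp2 to Nrp1 was 0.224 and 0.246 in control and 0.578 and 0.595 with tamoxifen, 2.49-fold higher with groups that did not overlap. An exact permutation test of 2 against 2 libraries cannot give a p below 0.333, the value found for this ratio. The fold change of Nrp2 lay near the size limit of 1 and was -0.67 when libraries were rescaled to equal totals, -0.81 under quantile normalization and -0.94 without tamoxifen library 2.

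**Figure D1:**
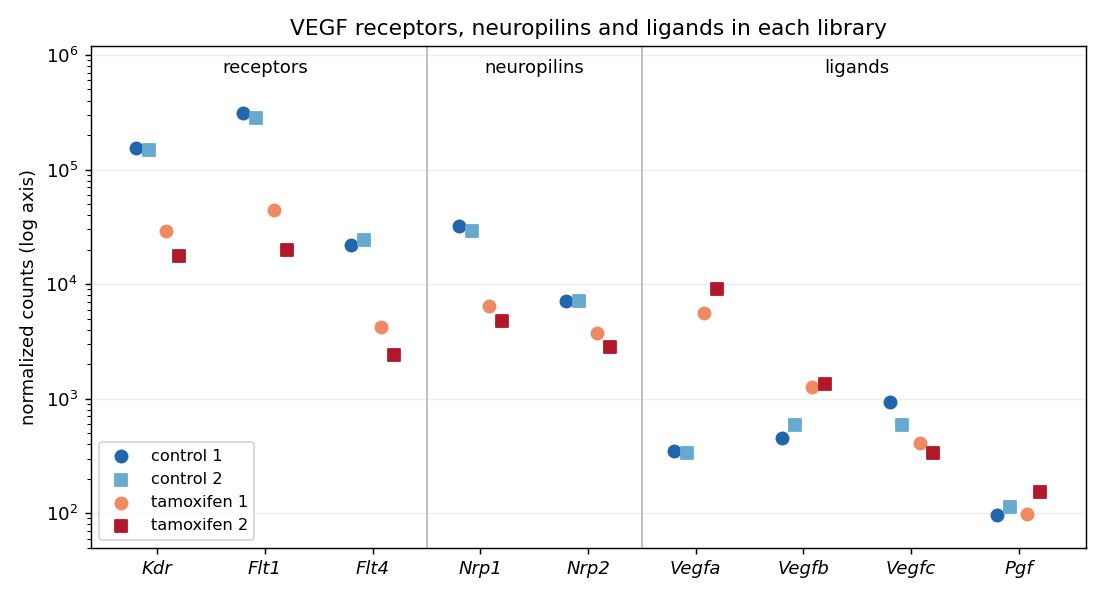
Normalized counts of the 9 genes (log axis) in each library, with circles for library 1 and squares for library 2 of the control (blue) and tamoxifen (orange and red) groups. The receptors and neuropilins lie lower in both tamoxifen libraries, Vegfa and Vegfb lie higher, and the groups overlap for Pgf.

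The ligands did not move together. Vegfa (chr17:46327919-46343309, minus strand), the principal ligand of VEGFR2, was at 348 and 335 normalized counts in control and at 5586 and 9005 with tamoxifen, from 254, 268, 5154 and 12526 reads. It was 20.7-fold higher, with a log2 fold change of 4.37 ± 0.23 (SE, limma, adjusted p = 1.20e-05), and 7.79% of all tested genes had a higher fold change. Vegfb (chr19:6958447-6965127, minus strand), a ligand of VEGFR1, was at 456 and 591 in control and at 1272 and 1335 with tamoxifen. The increase was 2.51-fold, with a log2 fold change of 1.33 ± 0.20 (limma, adjusted p = 0.000893). Vegfb no longer passed at 0.97 under quantile normalization, or without tamoxifen library 1 (adjusted p = 0.0623) or tamoxifen library 2 (adjusted p = 0.0719).

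Vegfc (chr8:54530257-54640131, plus strand), the lymphangiogenic ligand of VEGFR3, was at 937 and 593 in control and at 412 and 334 with tamoxifen. It was 2.01-fold lower, with a log2 fold change of -1.005 ± 0.27 just past the size limit (limma, adjusted p = 0.0150). The control libraries differed from each other more than the tamoxifen libraries did, and without control library 1 the log2 fold change was -0.68 (adjusted p = 0.0913). The call was also lost without tamoxifen library 1 (adjusted p = 0.143), without tamoxifen library 2 (adjusted p = 0.216), without the mean-variance trend (adjusted p = 0.0631), with a pseudocount of 5 and at equal totals (-0.54). Pgf (chr12:85213409-85224564, minus strand), which encodes placental growth factor, was the least abundant, at 95.9 and 114 in control and 97.5 and 152 with tamoxifen, from 70 to 211 reads. Its groups overlapped, and the log2 fold change of 0.22 had a 95% confidence interval of -0.73 to 1.16 (limma, adjusted p = 0.666). The sign for Pgf turned under quantile normalization (-0.998) and without tamoxifen library 2 (-0.10). Vegfd, the remaining ligand of VEGFR3, was at 445 and 421 in control and 283 and 224 with tamoxifen, a log2 fold change of -0.78 that was under the size limit (limma, adjusted p = 0.0320) and passed under quantile normalization (-1.63).

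Of the 9 genes, 6 fell and 2 rose, whereas 16.0% of all 20485 tested genes fell and 28.6% rose (limma, adjusted p under 0.05 and a log2 fold change over 1). The groups of libraries did not overlap for 8 of the 9, against 82.3% of all tested genes, with 2 higher (43.1% of all) and 6 lower (39.2% of all). With each library left out in turn, 4 to 6 of the 9 fell and 1 or 2 rose. Rescaling to equal totals moved the median log2 fold change of all tested genes from 0.05 to 0.52 and quantile normalization moved it to -0.20, and under both no member other than Pgf changed sign. At equal totals 4 of the 9 fell, without Nrp2 and Vegfc, and 2 rose. Under quantile normalization 5 fell, without Nrp2, and 1 rose, without Vegfb. Exons of Flt4, Nrp1, Nrp2, Vegfa and Vegfc overlap annotated antisense lncRNAs. The paper names a stranded library kit, but the strand setting of the counting was not stated, so reads of these partners may be included. The only such partner listed, Gm29083 at Nrp2, was itself at 8.22 and 3.75 normalized counts in control and 4.34 and 0 with tamoxifen.

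**Figure D2:**
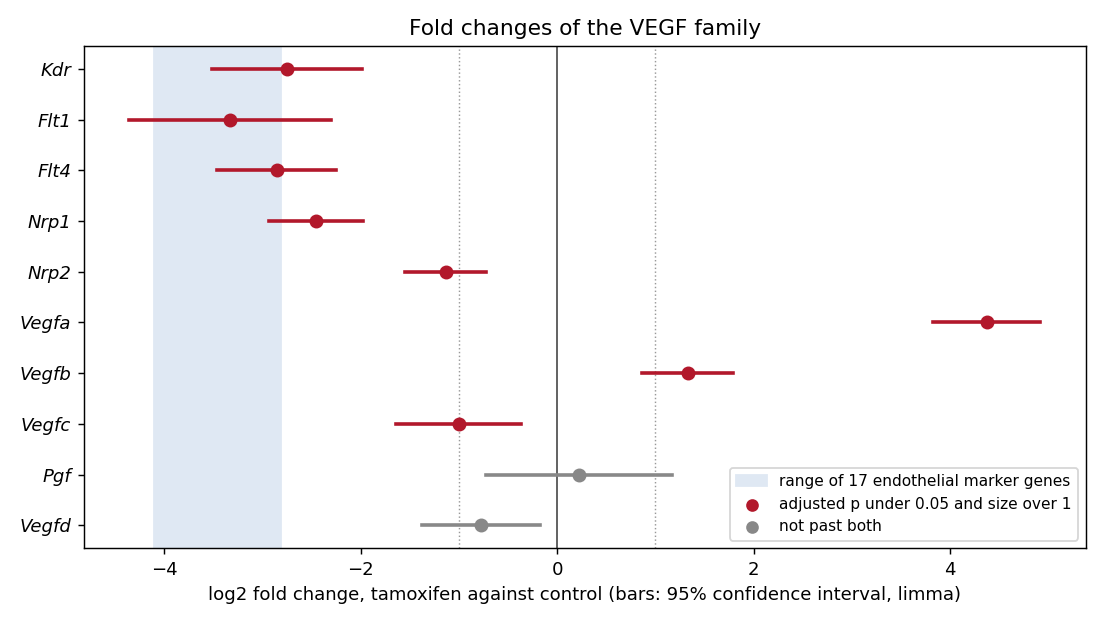
Log2 fold change of tamoxifen against control for the 9 genes and Vegfd, with 95% confidence intervals from limma on 2 libraries per group. The shaded band spans the 17 endothelial markers, from -4.10 to -2.82, and dotted lines mark the size limit of 1. Flt1 and Flt4 lie inside the band, Kdr and Nrp1 just above it, and Vegfa at 4.37.

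Most markers of brain cells outside the vessel wall were higher in the libraries with more Vegfa. Among all tested genes 28.6% rose. The 10 astrocyte markers all rose, with a summed level of 30783 and 36963 normalized counts in control and 155274 and 319887 with tamoxifen. Their highest member in normalized counts was the glutamate transporter Slc1a2, at 11050 and 18112 in control and 69316 and 155205 with tamoxifen (limma, adjusted p = 0.0644 without tamoxifen library 2). Of 8 ependymal and choroid plexus markers, 7 rose, and their sum was 6930 and 9793 in control and 24922 and 76979 with tamoxifen. Among 8 oligodendrocyte precursor markers 6 rose and 1 fell, namely Gpr17, named after its values were seen, from 1666 and 926 to 126 and 129. This list had a sum of 5541 and 7512 against 27779 and 62603. It shares Pdgfra with the fibroblast list and Cspg4 with the pericyte and smooth muscle list, so it is not specific to precursors. The 8 neuron markers, of which 6 rose, had a sum of 1311 and 1701 against 11212 and 20218. No gene of these 4 lists was at or below 3 reads in either group. Without tamoxifen library 1 or 2, 6 and 3 of the 10 astrocyte markers and 4 and 1 of the 8 ependymal and choroid plexus markers passed the test. All 4 sums, like Vegfa, were higher in tamoxifen library 2 than in tamoxifen library 1, whereas the receptors were lower there. These 4 lists were not alone in this. The pericyte and smooth muscle sum (44304 and 88042 in tamoxifen libraries 1 and 2), the lymphatic endothelial sum (4126 and 7185) and the oligodendrocyte sum (5384 and 5929) were also higher in library 2. The sums of the other marker lists were higher in tamoxifen library 1, among them neutrophil, fibroblast, and microglia and macrophage markers (6916 and 5828 for the last). The part of these cells in the level of Vegfa was not tested.

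The receptors were next set against the endothelial markers of the same library, because this comparison does not depend on the library factor. Kdr stood 1.25 and 1.01 log2 units above the median of the 17 markers in control and 1.361 and 1.54 above it with tamoxifen. The difference of 0.32 had a 95% confidence interval of -0.42 to 1.07. For Flt1 the distances were 2.26 and 1.95 in control and 1.97 and 1.72 with tamoxifen, a difference of -0.26 (-0.97 to 0.46). Flt4 lay under the median, at -1.58 and -1.61 in control and at -1.42 and -1.33 with tamoxifen, a difference of 0.22 (-0.68 to 1.11), which was -0.01 when Pecam1 and Cdh5 alone were the reference. The values of the groups overlapped for Flt1 and not for Kdr and Flt4, and the 3 intervals included no difference but were wide.

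The receptors were also compared with single endothelial genes. The ratio of Flt4 to Pecam1, the gene of CD31, was 0.262 and 0.271 in control and 0.262 and 0.267 with tamoxifen, with overlapping groups. Kdr to Pecam1 was 1.86 and 1.66 in control and 1.80 and 1.96 with tamoxifen, again overlapping. Flt1 to Pecam1 went from 3.74 and 3.19 in control to 2.75 and 2.22 with tamoxifen, 1.40-fold lower without overlap. In the same way Flt1 to Kdr was 2.01 and 1.92 in control and 1.53 and 1.13 with tamoxifen, 1.495-fold lower. Of the 17 endothelial markers, 4 fell further than Flt1 and 13 fell less, whereas 17 fell further than Kdr. The ratios of Flt1 reached the smallest p that 2 against 2 libraries allow (exact permutation test, p = 0.333).

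Nrp2 and the 4 ligands were called higher against the endothelial median with tamoxifen, and Nrp1 was not. Nrp1 was at -1.03 and -1.34 log2 units in control and at -0.80 and -0.33 with tamoxifen, a difference of 0.62 (-0.24 to 1.48). Nrp2 moved from -3.19 and -3.36 to -1.59 and -1.08, a difference of 1.94 (0.99 to 2.89). The ratio of Nrp2 to Pecam1 was 0.0856 and 0.0807 in control and 0.233 and 0.318 with tamoxifen, 3.27-fold higher. Vegfa moved from -7.55 and -7.77 to -1.01 and 0.58, a difference of 7.44 (6.37 to 8.52). The difference was 4.40 for Vegfb, 3.29 for Pgf and 2.07 for Vegfc, all without overlap between the groups. On this scale 89.2% of all tested genes were called higher and 0.0879% lower by the same thresholds, so 5 of 9 was no more than for genes at large. Nrp2 and Vegfc lost their calls without either control library, which left 3 of the 9. All genes of this fit share the spread of the same 4 medians, which the intervals do not count separately for each gene, so they are given without p-values.

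**Figure D3:**
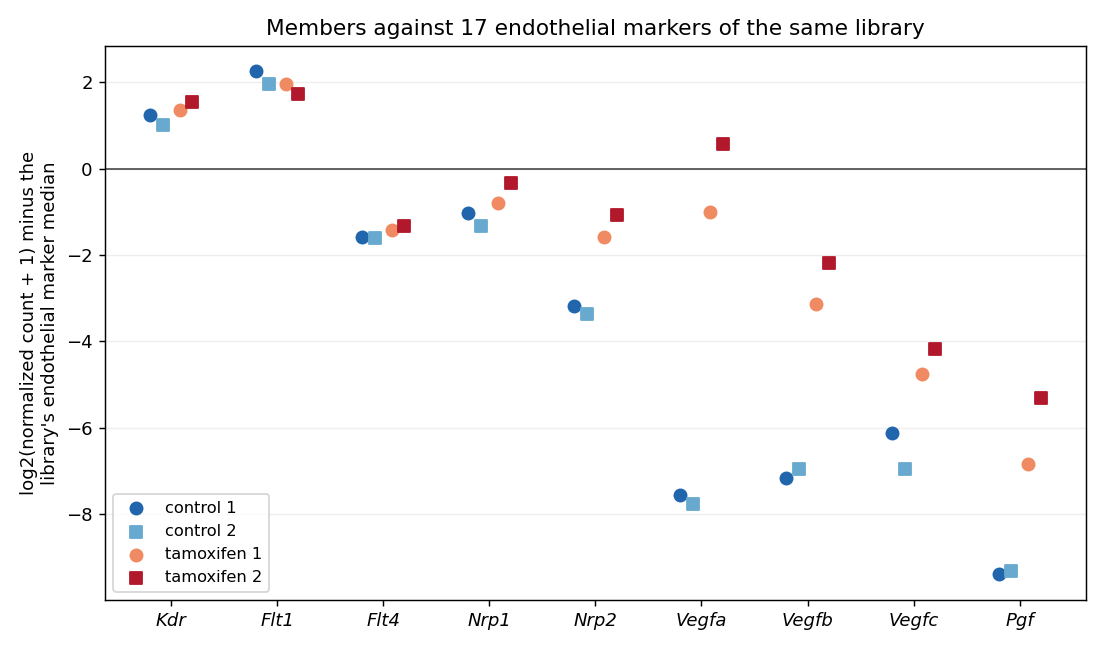
Level of each gene minus the median of 17 endothelial markers in the same library, in log2 units, with circles for library 1 and squares for library 2 of each group. The receptors keep within 1 unit of their control positions, and Nrp2 and the ligands rise further in both tamoxifen libraries, Vegfa by 7.44. Kdr, Flt4 and Nrp1 also lie higher in both, and 89.2% of all tested genes were called higher on this scale.

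Levels of different genes were compared per kilobase of exonic sequence. In control the order was Flt1 (21820 normalized counts per kilobase), Kdr (16463), Flt4 (2789), Nrp1 (2002), Nrp2 (595), Vegfc (268), Vegfb (161), Vegfa (79.5) and Pgf (35.8), and the libraries of neighbours in this order did not overlap. With tamoxifen it was Kdr (2523), Flt1 (2339), Vegfa (1697), Vegfb (401), Flt4 (399), Nrp1 (369), Nrp2 (273), Vegfc (130) and Pgf (42.6). Here the libraries of Kdr and Flt1, of Flt1 and Vegfa, of Vegfb and Flt4, and of Flt4 and Nrp1 overlapped. Vegfa thus went from place 8 of the 9 genes to place 3. With the length of the canonical transcript in place of all exons, Vegfa kept these places, but Nrp1 stood above Flt4 in both groups, Vegfb above Vegfc in control and Flt1 above Kdr with tamoxifen.

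The shares of receptor and ligand RNA in these bulk libraries shifted accordingly. Of the summed level per kilobase of the 9 genes, the receptors made up 92.8% and 93.0% in control and 72.5% and 53.2% with tamoxifen. The ligands made up 1.27% and 1.19% in control and 19.7% and 38.8% with tamoxifen, or 15.3% and 31.5% with canonical lengths. Vegfa alone took 0.177% and 0.183% in control and 13.7% and 30.4% with tamoxifen. The neuropilins were at 5.88% and 5.86% in control and 7.75% and 8.002% with tamoxifen. Shares of a sum depend on each other, so a smaller receptor share is the other side of a larger ligand share. A change in the mix of cells and one within cells cannot be told apart from these shares.

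**Figure D4:**
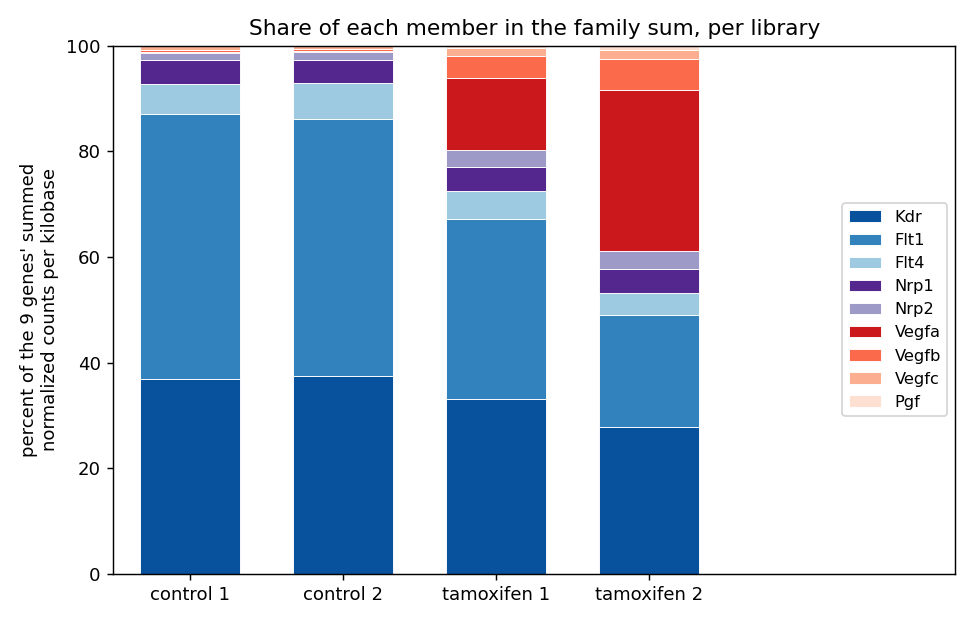
Share of each gene in the summed normalized counts per kilobase of exonic sequence of the 9 genes, as stacked bars of 100% for each library, with receptors in blue, neuropilins in purple and ligands in red. The ligands are a thin band in control (1.27% and 1.19%) and reach 19.7% and 38.8% with tamoxifen, mostly from Vegfa.

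Pairs of a ligand and its receptor were compared as ratios of normalized counts within each library. Vegfa to Kdr was 0.00224 and 0.00228 in control and 0.194 and 0.512 with tamoxifen, 140-fold higher. Vegfc to Flt4 was 0.0427 and 0.0247 in control and 0.0982 and 0.140 with tamoxifen, 3.61-fold higher, although Vegfc itself was lower. Pgf to Vegfa, which compares ligands of VEGFR1, was 0.276 and 0.340 in control and 0.0175 and 0.0168 with tamoxifen, 17.8-fold lower. The groups did not overlap for these 3 ratios, and each had the smallest p that the design allows (exact permutation test, p = 0.333). Kdr and Flt4 fell beside the endothelial markers, and 89.2% of all tested genes were called higher against the median of those markers. The higher ratios to Kdr and to Flt4 are to be read beside that share. A change in the mix of cells and one in ligand RNA per cell cannot be told apart here. Flt4 to Kdr was 0.141 and 0.163 in control and 0.146 and 0.136 with tamoxifen, with overlap.

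The genes most like Kdr in their profile over the 4 libraries were sought among 13659 genes that averaged 100 normalized counts or more. The nearest were Arap3 (a GTPase-activating protein), at 39284 and 37643 in control and 7189 and 4373 with tamoxifen, Lef1 (a transcription factor of Wnt signalling), at 13830 and 12542 in control and 2525 and 1534 with tamoxifen, and Map4k2 (a kinase), with distances of 0.0308, 0.0459 and 0.0488 log2 units. For Vegfa the nearest were the transcription factors Sp8 and Sox8 and the neuronal protein gene Dpysl3, with distances of 0.142, 0.147 and 0.190. Sox8 was at 65.7 and 55.1 in control and 962 and 1600 with tamoxifen. With 4 libraries these distances are a description.

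Genes around the VEGF pathway were then described in 8 lists with 116 tested genes. Of these 25 rose and 45 fell, with a median log2 fold change of -0.75, against 28.6% that rose, 16.0% that fell and a median of 0.05 among all tested genes. The share of the 116 that rose was thus under that of all genes. The counts of each list below with all 4 libraries at the deposited scaling are to be read against the same 28.6% and 16.0%. Counts under other settings are not. At equal totals 7206 of the 20485 tested genes rose and 1838 fell, and without a tamoxifen library fewer genes were called in both directions.

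Genes that process or retain the ligands were mostly higher in the libraries given tamoxifen. Of 7 genes of VEGF-C processing 5 rose and 1 fell, with a median log2 fold change of 3.99. Ccbe1, the cofactor that presents VEGF-C to its protease, was at 5.48 and 10.01 normalized counts in control and 351 and 291 with tamoxifen. It had 4 and 8 reads in control, so that it entered the tested genes through the tamoxifen group. The same holds for Adamts3, another of the 5 that rose, with 4 and 1 reads in control. Adamts14, a protease of that family, was at 21.9 and 57.6 in control and 1058 and 783 with tamoxifen (limma, adjusted p = 0.000149, or 0.0656 and 0.0623 without tamoxifen library 1 or 2). Furin, the convertase that cleaves pro-VEGF-C inside the cell, fell from 9273 and 10468 to 4583 and 3413 (limma, adjusted p = 0.000715), but its log2 fold change was under the size limit at equal totals (-0.85) and under quantile normalization (-0.91). Without tamoxifen library 1 or 2, 3 and 2 of these 7 genes rose. Of 11 genes of matrix binding and release 9 rose and 2 fell, with a median of 3.06. Mmp9, which frees VEGF from matrix and is abundant in neutrophils, was at 27.4 and 17.5 in control and 4744 and 3297 with tamoxifen (limma, adjusted p = 6.38e-06). Sulf2, a heparan sulfate sulfatase, was at 197 and 218 in control and 7543 and 5766 with tamoxifen. Ccn2, a matrix protein that binds VEGF-A, fell 6.46-fold, and Hspg2, which encodes the basement membrane proteoglycan perlecan, fell 2.85-fold. Hspg2 did not pass under quantile normalization (-0.41, adjusted p = 0.141) or without tamoxifen library 2 (adjusted p = 0.0514). The neutrophil and fibroblast sums given above were higher with tamoxifen as well, although the CD45- gate is meant to remove neutrophils, and their part in these lists was not tested.

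Semaphorins and plexins, which share the neuropilins with VEGF, went both ways. Of 14 genes 5 rose and 4 fell, with a median log2 fold change of 0.28, and the number that rose was near what 28.6% gives. The class 3 semaphorin genes Sema3c and Sema3g fell 10.6-fold and 9.58-fold, from 42818 and 40597 to 6011 and 2554 and from 9972 and 9283 to 1606 and 627 (limma, adjusted p = 0.000164 and 0.000245). Sema3e, the ligand of plexin D1, was at 2.74 and 2.503, within 3 reads, in control and at 328 and 228 with tamoxifen, and it entered the tested genes through the tamoxifen group. Sema3b was at 15.1 and 21.3 in control and 364 and 401 with tamoxifen (limma, adjusted p = 0.000125).

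Genes that act on or below the receptors were mostly lower. Of 15 genes that control receptors at the membrane 6 fell and 1 rose, with a median of -0.78. The 1 that rose, Sh2d2a, was at 3 reads in each control library and entered the tested genes through the tamoxifen group. Ptprb, the endothelial phosphatase VE-PTP, fell 8.65-fold, from 225585 and 201409 normalized counts to 36240 and 16765 (limma, adjusted p = 0.000471), and Epn2, an epsin of receptor endocytosis, fell 3.08-fold. Of 25 genes of signalling below VEGFR2 7 fell and 1 rose, with a median of -0.83. Nos3, the endothelial nitric oxide synthase, fell 7.24-fold and Nfatc1, a calcineurin-dependent transcription factor, fell 4.02-fold, whereas Prkca, a protein kinase C gene, rose 5.27-fold from 208 and 294 to 1310 and 1308 (adjusted p = 0.0502 without tamoxifen library 2). Of 15 genes known to be induced by VEGF 9 fell and 0 rose, with a median of -1.36. Igfbp3 fell 12.6-fold and the Notch ligand gene Dll4 fell 7.03-fold, from 16664 and 13104 to 2797 and 1580. At an unadjusted p under 0.05, 0 genes of the list were higher in limma, and 1 was at equal totals and 1 under quantile normalization. In edgeR and DESeq2 on the recovered reads of all 4 libraries 0 genes were called higher, and 11 and 10 fell. Without tamoxifen library 1 or 2 the median log2 fold change of the list in limma was -1.81 and -1.12. At equal totals 3 membrane genes, 4 signalling genes and 6 induced genes fell.

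Transcription factors of the receptor genes mostly fell. Of 16 tested factors 12 fell and 2 rose, with a median of -2.13. Gata2 fell 9.55-fold, from 16152 and 17755 normalized counts to 2650 and 1185 (limma, adjusted p = 0.000147), and Sox18 fell 8.46-fold, from 12581 and 18127 to 2701 and 1178. Prox1, the lymphatic regulator that is also expressed in glial precursors and neurons, was at 86.3 and 125 in control and 553 and 1170 with tamoxifen (limma, adjusted p = 0.00053, or 0.0653 without tamoxifen library 2). Of 13 genes that control the ligand genes 4 fell and 2 rose, with a median of -0.39 that turned to 0.08 at equal totals and 0.02 under quantile normalization. Epas1, which encodes the hypoxia-inducible factor HIF-2α and is abundant in endothelial cells, fell 7.32-fold, and Zfp36, which degrades Vegfa mRNA, fell 5.51-fold, from 10202 and 8717 to 2390 and 1223. Egln3, a hypoxia-induced prolyl hydroxylase gene, was at 74.0 and 97.6 in control and 917 and 914 with tamoxifen, 10.7-fold higher (limma, adjusted p = 6.23e-05). Ppargc1a, the coactivator that can raise Vegfa, rose 7.95-fold, from 112 and 92.6 to 591 and 1132, with tamoxifen library 2 the higher. The part of Ppargc1a in the level of Vegfa was not tested. The 17 endothelial markers had a median of -2.97 beside these lists, and their part was not tested.

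**Figure D5:**
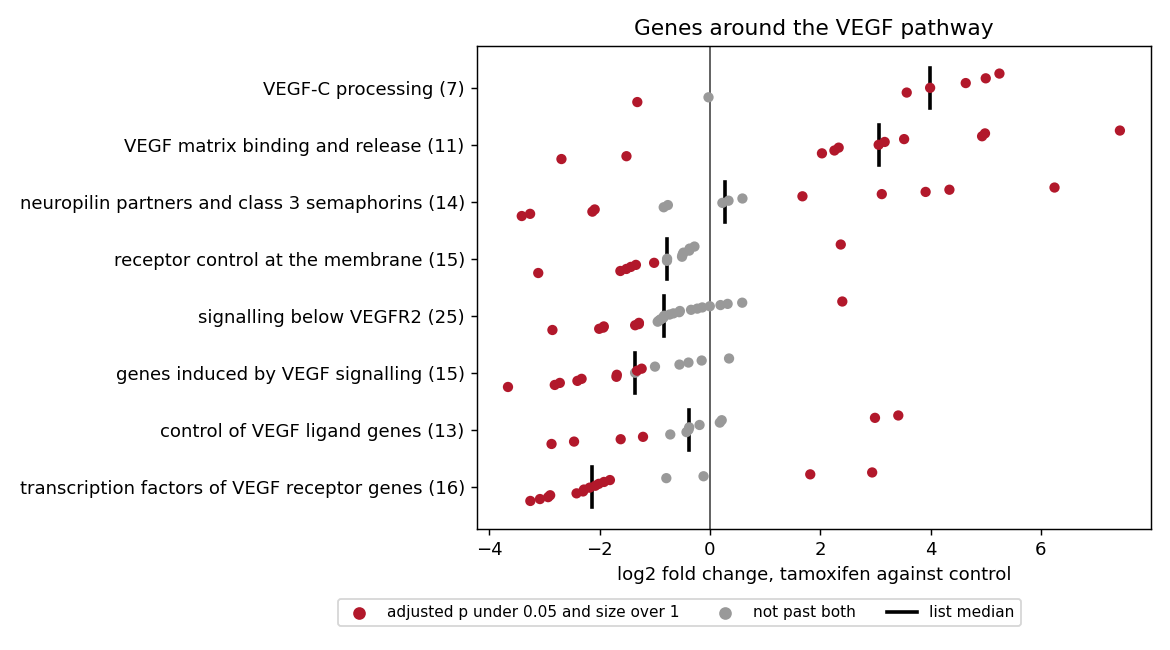
Log2 fold change of tamoxifen against control for the genes of 8 lists around the VEGF pathway (number tested in brackets), 1 point per gene, red where past both thresholds, with the list median as a black bar. Medians run from -2.13 for transcription factors of the receptor genes to 3.99 for VEGF-C processing.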

How the data were processed

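RNA-Seq libraries of 2 control and 2 tamoxifen pools were analysed. Per the labels, the authors used STAR 2.7.10a and GRCm39, and they deposited a signal per gene, namely counts divided by one DESeq2 1.36.0 factor per library (normalized counts). The counting strand and annotation release are not given in the sources used here. Column letters C and A were read as control and as AVM, the tamoxifen group, although the labels give no A. Whole reads were recovered (100% of values within 0.01 of a whole number), so depth was 35387438 to 49799321 reads, and limits from counts cover counting error only. Values were tested as log2(normalized count + 1) with limma 3.58.1 (R 4.3.3, eBayes with trend, two-sided) in the 20485 genes that averaged 10 or more. Genes were called where the BH-adjusted p was under 0.05 and the log2 fold change exceeded 1 in size. Fold changes are on that scale and understate low genes. The libraries of a group were separate pools of mice, and their counts differed beyond sampling noise. Alternatives were pseudocounts of 0.5 and 5, other filters, scalings and tools (DESeq2 1.42.0 and edgeR 4.0.16, both on whole reads), a replicate block and each library left out. The lists were 8 around the pathway and 17 of cell type markers, and the members and lists were chosen with earlier results of these data known. Named were the 9 genes, Mgp, Vegfd, up to 2 called genes per direction and pathway list with the largest change (mean of at least 100, groups without overlap), the gene of a marker list with the highest group mean, and the 3 nearest profiles (Euclidean distance of centred log2 values) of Kdr and of Vegfa. Locations came from GENCODE M39 (GRCm39) and promoters from RefSeq tables, with the first window of each of the 9 genes counted.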

Additional observations from a re-analysis of the deposited data

How the results depend on the processing

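Over 15 alternatives, Kdr, Flt1, Flt4, Nrp1 and Vegfa kept their direction and their side of both thresholds, with log2 fold changes of -3.10 to -1.77, -3.90 to -2.33, -3.26 to -2.39, -2.67 to -1.89 and 4.03 to 4.84. The number of the 9 genes that rose was 2, and it was 1 under quantile normalization and 1 to 2 with a library left out. The number that fell was 6, and 4 to 6 with a library left out. Among all genes, 5867 of 20485 tested rose, and with a filter at a mean of 100 3540 of 13668 tested did so. A library left out gave 2553 to 6163, lowest without tamoxifen library 2 (2553) and tamoxifen library 1 (3030). The 3284 genes that fell became 1838 at equal totals, 5275 under quantile normalization, 5228 by the adjusted p alone and 1594 to 3537 with a library left out, again lowest without tamoxifen library 2 (1594) and tamoxifen library 1 (1994). Pgf reversed under quantile normalization (-0.998) and without tamoxifen replicate 2 (-0.0985) and was 0.53 without tamoxifen replicate 1. Against the endothelial median, 5 of the 9 genes were higher and 3 to 5 with a library left out, and Nrp2 and Vegfc lost their calls without either control library, where their differences were 2.02 and 1.85 and 2.48 and 1.66. The difference of Flt4 reversed to -0.0123 with Pecam1 and Cdh5 as the reference. Where a library is left out, the lone library of its group is assumed to vary like the other group. Subtraction of the all-gene median and the canonical transcript lengths were chosen after seeing the data, and the former changed no call of the 9 genes. The causes of these changes were not tested. Same-numbered libraries did not deviate together (correlation 0.0251) and share only a number. With the replicate number as a block, 2 of the 9 genes rose and 6 fell, as without it, and 6064 genes rose and 3461 fell among all genes, in a fit with 1 residual degree of freedom. Depth limits Pgf most, with 70 to 211 reads.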

Other observations

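Vessel-related lists beside the VEGF genes differed in direction. With all 4 libraries, 28.6% of all tested genes rose and 16.0% fell, and the list counts of this section are to be read beside these shares. Of 6 lymphatic endothelial markers 3 rose and 2 fell (0 fell at equal totals or without tamoxifen library 1 or 2). The one with the highest mean in any group, Pdpn, which was not the highest in control and is also expressed outside lymphatic vessels, was at 54.8 and 101 normalized counts in control and 2545 and 2732 with tamoxifen (limma, adjusted p = 1.90e-05). Of 7 tip cell markers, genes of sprouting endothelium, 4 fell and 0 rose. All 7 are also among the 15 genes known to be induced by VEGF, so this is not a separate observation. The highest in normalized counts, the basement membrane gene Nid2, was at 16609 and 15254 in control and 13526 and 10917 with tamoxifen. Its log2 fold change was -0.39 (limma, adjusted p = 0.116). At an unadjusted p under 0.05, 0 tip cell markers were higher in limma, and 1 was at equal totals and 1 under quantile normalization, while edgeR and DESeq2 called 0 higher. Of 11 pericyte and smooth muscle markers 3 rose, near what 28.6% gives, and 0 fell. Rgs5, the highest in normalized counts, was at 16212 and 26543 in control and 14466 and 30134 with tamoxifen, with overlapping groups. The 3 calls became 0 without control library 1, tamoxifen library 1 or tamoxifen library 2, 7 without control library 2, and 1 higher and 1 lower without the mean-variance trend.

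Further lists were higher with tamoxifen. All 10 cell cycle genes rose, with Mki67 at 340 and 431 in control and 31066 and 32223 with tamoxifen. Of 10 pluripotency genes 9 rose, and Klf2, a flow-induced endothelial gene on the same list, fell 5.06-fold. Klf2 alone held 33406 and 26445 of the list's 33487 and 26564 normalized counts in control, so the 9 that rose were low there. Among these 9, Utf1 was at or below 3 reads in control and entered the tested genes through the tamoxifen group. The filter took the mean of all 4 libraries, so it did not require the others to be present in control. Their rise is to be read with that limit. Of 8 lymphocyte markers 6 were tested, and all 6 rose, with a median log2 fold change of 3.97. The median was 3.73 and 4.28 without tamoxifen library 1 or 2. The 8 markers summed to 72.6 and 102.6 normalized counts in control and 2699.7 and 1965.5 with tamoxifen. Among them, Cd3e and Cd3g were at or below 3 reads in control, so the same limit holds for this list. All 8 erythroid and 5 megakaryocyte markers, 6 of 10 microglia and macrophage markers and 6 of 7 oligodendrocyte markers also rose, but without tamoxifen library 1 or 2 the counts were 2 and 2, 0 and 0, 0 and 0, and 2 and 2. The CD45- gate is meant to remove lymphocytes, microglia and macrophages. The parts of these cells in the levels of the VEGF genes were not tested.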
